A study of Mus musculus with 23 samples.

Results

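The 5′ untranslated regions (5′ UTRs) of 60 or more and under 300 bases that carried ribosome footprints in mouse intestinal organoids were described here. A member was a 5′ UTR entry of the deposited footprint quantification with a length in that range and at least 30 estimated counts summed over 6 ribosome profiling (Ribo-seq) libraries. This held for 3981 of the 31501 entries in the length range (12.6%), out of 44641 5′ UTR entries of any length, and the members belonged to 3456 genes. Members were chosen by their footprint counts summed over all 6 libraries, so their level was a description and was not tested. Each entry held the annotated 5′ UTR and the first 11 bases of the coding sequence.

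The 5′ UTR is the stretch that the small ribosomal subunit scans on its way to the start codon. A footprint on it can come from a ribosome that translates a short upstream open reading frame (uORF), which generally lowers initiation at the main start codon, and the assay does not tell such a ribosome from other protected fragments. In the intestinal epithelium, mTORC1, the nutrient-sensing kinase complex that holds Raptor (the product of *Rptor*), is known for promoting translation of mRNAs that begin with a terminal oligopyrimidine (TOP) run. Iron responsive elements (IREs), stem-loops in the 5′ UTRs of the ferritin mRNAs, bind repressor proteins when iron is scarce.

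The sequences below show the 3 kinds of 5′ UTR feature that were looked at. All were read from the GENCODE vM21 transcripts on mm10, 5′ to 3′ on the transcript strand, and each was 30 bases from a single genomic block. In the first set the capitals mark the first upstream ATG. It opened a frame that closed inside the 5′ UTR in the members of Ifrd1 (52 codons, chr12:40223141-40223170, minus strand), Eif5 (22 codons, chr12:111539514-111539543, plus strand), Eif1 (6 codons, chr11:100319894-100319923, plus strand), Eif4g2 (19 codons, chr7:111082967-111082996, minus strand) and Sat1 (4 codons, chrX:155216268-155216297, minus strand). In Lgr5, the intestinal stem cell receptor, the frame ran 130 codons, past the start codon (chr10:115587747-115587776, minus strand).
Ifrd1-201: ctagagagaaacATGtatcgtttccgctcg
Eif5-215: ttgcagtcgtttATGtcatcccttcttctc
Eif1-201: gagcttgactccATGggtggggccgagacg
Eif4g2-206: agccggagctctATGgaggtggcggcgggt
Sat1-202: gttcgccgggtcATGgtgccagcctgactg
Lgr5-201: gtgcgagcggagATGctgctgcacacagct

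The second set shows annotated 5′ ends that open with C and a pyrimidine run, in capitals. They belonged to Rack1, a protein of the small ribosomal subunit (chr11:48800360-48800389, plus strand), Hnrnpa1, a splicing factor (chr15:103240454-103240483, plus strand), and Ptma, prothymosin alpha (chr1:86526807-86526836, plus strand). In the third set the capitals mark the CAGTG loop of the iron responsive element in the heavy and light ferritin chains, Fth1 (chr19:9982729-9982758, plus strand) and Ftl1 (chr7:45459781-45459810, minus strand).
Rack1-201: CTTTTTCTCCacagggtcgtggtggcagcc
Hnrnpa1-202: CTTTCTgctctttgacgctgccgaggaagc
Ptma-204: CCTCCTCCagcgcggactccggcagctctc
Fth1-209: ggtttcctgcttcaaCAGTGcttgaacgga
Ftl1-202: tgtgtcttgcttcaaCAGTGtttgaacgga

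Both culture groups were C57BL/6 organoids, with 3 lines each. The first was labelled VillinCre.ERT2.Rptor.fl/fl.RPL22.HA and untreated, and carries an inducible Cre under the epithelial Villin promoter together with floxed *Rptor*; the study's methods describe tamoxifen injections of animals of both genotypes. The second, SCe, was labelled VillinCre.ERT2.RPL22.HA and was enriched for stem cells with CHIR99021 at 10 µM, a GSK3 inhibitor that activates WNT signalling, and valproic acid at 1.5 mM, a histone deacetylase inhibitor. Both groups carried HA-tagged RPL22, through which ribosomes were pulled down. For ribosome profiling the study's methods describe a short cycloheximide treatment of the cells before lysis, and its part in 5′ footprints was not tested. The groups differed in both genotype and culture medium, which cannot be told apart. RNA-seq came from 2 lines labelled VillinCre.ERT2.Rptor.fl/fl, without the tag in the label, and 3 SCe lines. RNA and footprints labelled Rptor fl/fl are therefore not known to come from the same organoids.

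Libraries labelled Rptor fl/fl held 6240746, 6662697 and 8584977 footprints, and the SCe libraries 2129894, 1169578 and 4372286. *Rptor* coding footprints were 17.3, 18.4 and 16.1 CPM (counts scaled to the library size) in the first group and 12.9, 38.1 and 21.6 in SCe (log2 difference, labelled Rptor fl/fl over SCe as throughout, −0.48 ± 0.37 (SE), edgeR adjusted p = 0.470), which overlapped, so the footprint libraries are called by their labels throughout. *Rptor* RNA was 14.9 and 15.6 CPM against 61.2, 54.3 and 54.0 (log2 −1.89 ± 0.10, edgeR adjusted p = 0.00105). Differentiated-cell markers moved with the groups. Summed coding footprints of 8 enterocyte markers were 8204 to 8800 CPM in libraries labelled Rptor fl/fl and 834 to 3661 in SCe, those of 7 goblet markers 3171 to 5237 and 1078 to 1576, those of 5 Paneth markers 6128 to 9298 and 3096 to 6067, and those of 5 enteroendocrine markers 483 to 570 and 29.1 to 61.4. Stromal markers summed to 1.25 to 1.99 and 2.33 to 3.24 CPM. None of the 9 epithelial markers measured was at 0 in all libraries, while Lum (stroma), Cd3e (immune cells) and Cdh5 and Kdr (endothelium) were. In such bulk libraries fewer cells of a type and less RNA per cell cannot be told apart, and the part of these cell types in the results below was not tested.

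Footprints were concentrated on few of the short 5′ UTRs. Of the entries in the length range, 18402 had no footprint at all, and the members held 89.0% of the footprints in the range. A member had a median of 74 counts over the 6 libraries (quartiles 46.0 and 143), 1460 members had at least 100 and 55 at least 1000. The median length was 170 bases. Of the members, 3553 lay on transcripts annotated as protein coding, 426 on targets of nonsense-mediated decay and 2 on non-stop transcripts.

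Members were not independent of each other. Some 28-base stretch was shared with another 5′ UTR entry in 72.0% of them, 429 genes had more than 1 member (5 at most), and 197 members, with 9.13% of the counts, shared a stretch with a 5′ UTR of another gene. In 3704 members, with 94.5% of the counts, no 28-base stretch was shared with any coding entry. Coding entries with a full flank began 15 bases before the start codon, so 26 bases there lay in both entries. A 28-base stretch is longer than that overlap, so this count could not see it. How footprints at the start codon were divided was not tested. Counts of near-identical copies and of alternative transcripts are therefore uncertain individually, and results are given below both per entry and summed over the 5′ entries of a gene.

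The members took 1.91%, 2.12% and 1.89% of all footprints in libraries labelled Rptor fl/fl and 3.71%, 2.65% and 1.34% in SCe. The SCe libraries spanned both the highest and the lowest share, so the groups overlapped. Means were 1.97% ± 0.13 (SD, n = 3) and 2.57% ± 1.19 (SD, n = 3), a difference of −0.59 percentage points (two-sided exact permutation test, p = 0.6; 3 libraries against 3 cannot go below 0.1). All p-values here measure only the spread between these organoid lines. The difference rested on SCe 1 and SCe 3, since it was −0.018 without SCe 1 and −1.21 without SCe 3. SCe 1 was the highest of the 6 libraries for 1659 members (41.7%) and SCe 3 the lowest for 1664. Within the 5′ UTR footprints alone the members' share was even, at 48.1% to 49.9% and 45.0% to 53.2%.

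**Figure D1:**
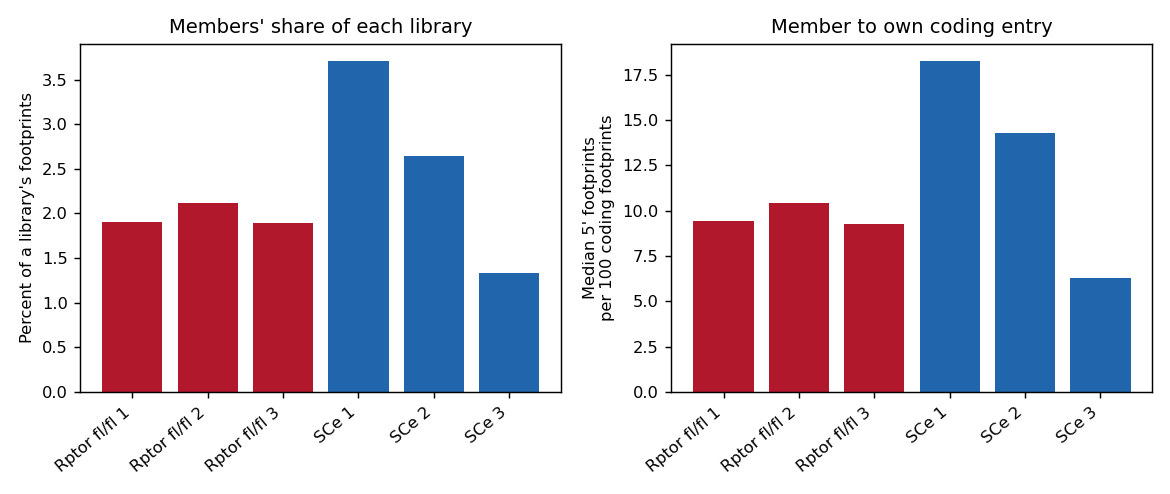
Left, percent of each library's footprints that lay on the 3981 members; right, the median over 2522 members of 5′ footprints per 100 footprints on the coding entry of the same transcript. Bars are single libraries (red, labelled Rptor fl/fl; blue, SCe); SCe 1 is the highest and SCe 3 the lowest in both panels.

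Detection was not ordered by depth alone. Libraries labelled Rptor fl/fl had a footprint on 3927, 3929 and 3958 members and the SCe libraries on 3767, 3558 and 3244, although SCe 3 was the deepest of its group. Libraries labelled Rptor fl/fl supplied 71.5% of the members' footprints and 73.7% of all footprints. Alone, that group would have carried 3156 members past the count minimum and SCe 1446, which favours entries that are high in the deeper group. No SCe footprint was seen on 30 members and none in the other group on 2.

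The entry with the most footprints was Sprr2a2-202, from a gene of the small proline-rich proteins of the epithelial barrier, with 587, 671 and 569 CPM (after TMM scaling, as in all that follows) in libraries labelled Rptor fl/fl. The SCe values of 1570.4, 239 and 196 lay on both sides of those. Every 28-base stretch of this 73-base entry also occurs in the 5′ UTR of another gene, so its counts cannot be given to Sprr2a2 alone, and it held 2.87% of all member counts.

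Several of the next entries are on mRNAs of the general translation and RNA-binding machinery. Eef1a1-201, on the mRNA of the main elongation factor, had 77.3, 219 and 181 CPM against 418, 178 and 128 in SCe, which overlapped. Hnrnpa2b1-210, of an RNA-binding protein, had 159, 177 and 133 against 83.7, 123 and 66.1. Ptma-204 had 98.9, 129 and 112 against 254, 186 and 109. Of these 3 entries, Hnrnpa2b1-210 was the one whose groups did not overlap. Rps20-203, on the mRNA of a small-subunit ribosomal protein, had 43.3, 78.3 and 67.3 against 515, 111 and 62.6. Its highest value was again that of SCe 1.

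Other entries among the 15 with most footprints are on epithelial mRNAs. Pigr-201, on the mRNA of the receptor that carries IgA across the epithelium, had 170.2, 178 and 161 CPM in libraries labelled Rptor fl/fl and 28.2, 38.8 and 36.3 in SCe. Gsta1-201, of a glutathione S-transferase of enterocytes, had 102, 119 and 81.4 against 3.70, 18.6 and 2.37. Ang4-201, of a Paneth cell antimicrobial ribonuclease, had 138, 63.5 and 69.9 against 38.4, 25.6 and 47.4. In all 3 the group labelled Rptor fl/fl lay wholly above SCe. H1f0-201, on the mRNA of the linker histone H1.0, was placed the other way, with 72.3, 87.5 and 87.0 against 404, 344 and 156.

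**Figure D2:**
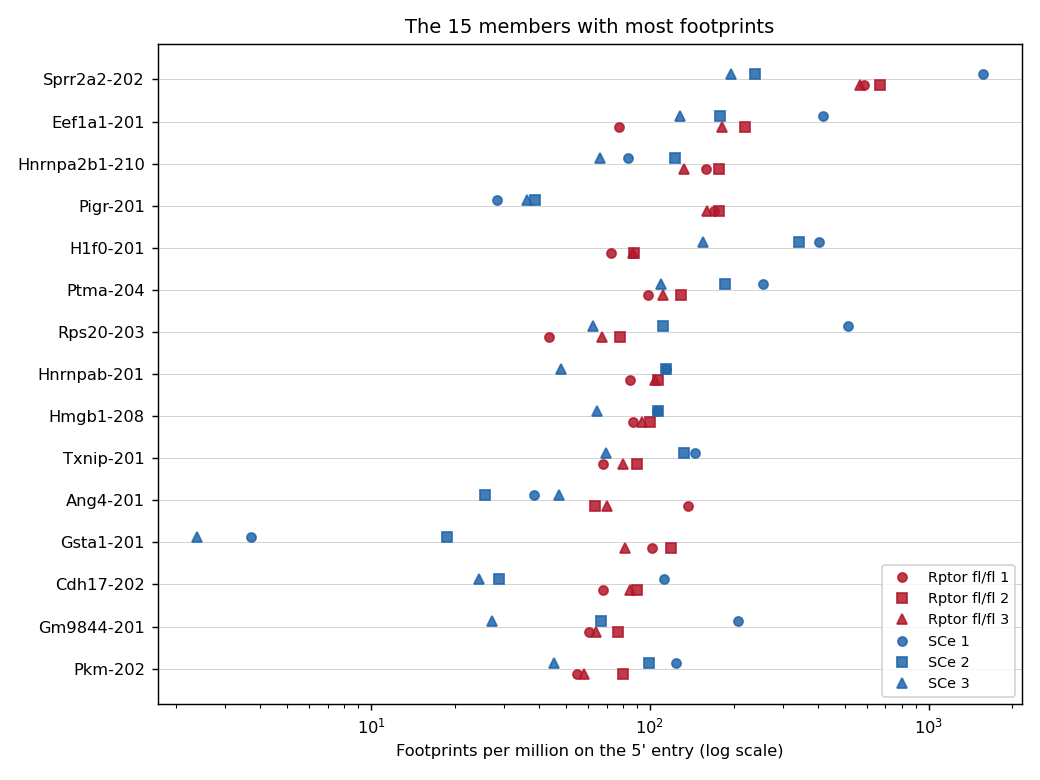
CPM (log scale) on the 15 members with most counts, at most 1 per gene; each point is 1 library. The groups are apart for Hnrnpa2b1-210, Pigr-201, H1f0-201, Ang4-201 and Gsta1-201, and SCe 1 (blue circle) is the highest point for Sprr2a2-202, Eef1a1-201 and Rps20-203.

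Most short 5′ UTRs carried few footprints beside the coding sequence they precede. A coding entry of the same transcript name existed for 3595 members, and in 2522 of those it had at least 30 counts. The median member had 9.44, 10.4 and 9.25 footprints per 100 on its coding entry in libraries labelled Rptor fl/fl and 18.3, 14.3 and 6.30 in SCe. Pooled over members the ratio was 4.27, 4.78 and 4.18 against 9.36, 6.79 and 3.11 per 100. The SCe libraries again enclosed the others (pooled difference −2.01 per 100, two-sided exact permutation test, p = 0.4; median difference −3.26, p = 0.4).

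The own coding entry is an incomplete partner. It had fewer than 30 counts for 1073 members and none for 686, and for Ptma-204 or Hmgb1-208 nearly all coding footprints had been given to another transcript of the gene. Set against all coding entries of the gene, 3415 genes could be compared, with 3.54, 3.94 and 3.48 footprints per 100 in libraries labelled Rptor fl/fl and 7.55, 5.37 and 2.49 in SCe (difference −1.48, two-sided exact permutation test, p = 0.4). By this measure 1124 genes had 10 or more 5′ footprints per 100, 243 had fewer than 1, and 26 had more on their short 5′ UTRs than on their coding entries.

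The 26 genes with more 5′ than coding footprints included Gm9844, all of whose 28-base stretches occur in another gene, and other predicted genes. Among named genes Stk16, a serine/threonine kinase, had 206, 310 and 159 per 100 coding footprints against 252, 307 and 140.0 in SCe, so the excess was present in each library. Slc25a51, a mitochondrial NAD carrier, had 104, 141 and 95.8 against 140.0, 44.5 and 152. Socs2, a suppressor of cytokine signalling, had 97.1, 102 and 116 against 74.3, 211 and 40.7. These 2 genes lay near parity, with SCe libraries on both sides. Vegfb, a vascular growth factor, had 173, 187 and 135 against 154, 100.0 and 23.8. Itsn1, an endocytic scaffold, had 97.7, 74.7 and 61.4 against 3311, 1287 and 36.8, with SCe 1 and SCe 2 alone above 100 per 100.

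Footprints per base were compared between each short 5′ UTR and its coding entry, over members and so over entries already chosen for their counts. The log2 ratio of 5′ to coding footprints per base had a median of −0.59, −0.36 and −0.58 in libraries labelled Rptor fl/fl and 0.41, 0.07 and −1.16 in SCe, and 35.9% to 58.2% of members were denser than their coding entry. The 1488 entries of 300 bases and more that met the same count minima gave −0.40 ± 0.48 (SD, n = 6) against −0.37 ± 0.55 for the 2522 members. The difference was 0.029 ± 0.074 (SD, n = 6), above 0 in 4 of 6 libraries, and was not tested because length and counts chose the members. A minimum of 30 counts asks a higher density of a short entry than of a long one. With no minimum on the 5′ entry, at least 100 counts on the coding entry, and counts and bases pooled over transcripts, 8356 short entries gave a mean over libraries of −2.10 and 2846 long ones −2.05, so that both were sparser than their coding entries in each library. Summed per gene the values were −0.82 and −0.53, a difference of −0.30 that was below 0 in each library, and under a minimum of 100 counts the difference was −0.15. Effective lengths, the positions that Salmon counts as open to a read, were 3.73 for the shortest and 51.4 for the longest member, and dividing by them gave a difference of 2.70 in favour of the members.

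An upstream ATG was present in 1957 members (49.2%), compared with 53.8% of the other entries of the same length range. Its frame closed inside the 5′ UTR in 1588 members (39.9%, compared with 42.3%) and no frame closed in 369. Members with a closed frame had more footprints beside their own coding entry than members without an ATG. Their median was 14.7, 15.5 and 13.5 per 100 in libraries labelled Rptor fl/fl and 23.9, 20.0 and 9.86 in SCe (n = 922). Without an upstream ATG it was 6.11, 7.69 and 6.47 against 13.8, 11.3 and 4.27 (n = 1367). Members with an open frame gave 14.9, 15.5 and 13.0 against 25.9, 22.5 and 9.32 (n = 233). In each of the 6 libraries both classes with an ATG lay above the class without one.

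Length differed between the classes, with medians of 210 bases for closed, 160 for open and 152 for none. Per base, the median log2 ratio was 0.22, 0.22 and 0.08 with a closed frame and −1.10, −0.84 and −1.12 without an ATG in libraries labelled Rptor fl/fl, and 0.94, 0.53 and −0.45 compared with 0.04, −0.28 and −1.78 in SCe. The order therefore held per base in every library. The members' GC content was also above that of the other entries in the range, at a median of 63.3% compared with 59.0%, and no test was made because the counts chose the members.

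**Figure D3:**
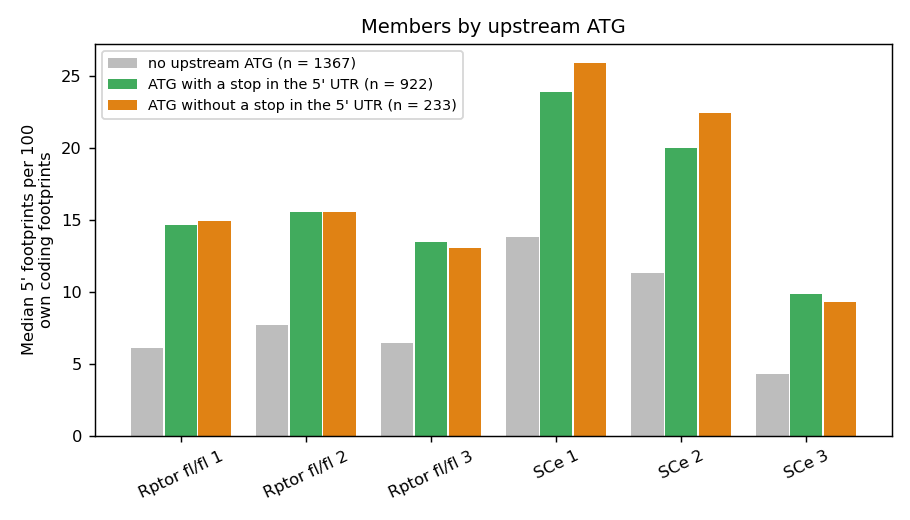
Median 5′ footprints per 100 footprints on the own coding entry, by library, for members without an upstream ATG (grey), with an ATG whose frame closes in the 5′ UTR (green) and with an ATG whose frame does not close there (orange). The grey bar is the lowest in all 6 libraries.

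Of 40 genes on a list known for regulatory upstream reading frames, 11 had 14 members, and none passed the threshold for a change. Ifrd1-201, on the mRNA of a transcriptional co-regulator whose uORF destabilises it, was the most 5′-loaded of those with at least 100 counts. It had 44.7, 33.0 and 35.8 footprints per 100 coding footprints of the gene in libraries labelled Rptor fl/fl and 144, 22.2 and 55.8 in SCe. Its level was 7.63, 5.47 and 7.14 CPM against 6.01, 3.11 and 5.69, which overlapped.

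Eif5, Eif1 and Eif4g2 members of the list are on initiation factor mRNAs. Eif5-215, of the GTPase-activating factor that controls start codon choice, had 40.6, 58.1 and 68.4 CPM against 25.4, 17.9 and 35.3 in SCe, without overlap (log2 1.08 ± 0.35, edgeR adjusted p = 0.299). Its 5′ to gene coding ratio was 11.04, 15.5 and 16.5 per 100 against 17.4, 10.0 and 16.4, so the ratio did overlap. Eif1-201, of the factor that holds scanning ribosomes open, had 16.3, 16.6 and 11.6 CPM against 33.3, 4.66 and 1.90. Eif4g2-206, of an eIF4G-related scaffold, had 11.9, 17.5 and 15.9 against 6.94, 7.77 and 9.72, and 4.30, 5.68 and 5.52 against 4.97, 3.94 and 3.88 per 100 gene coding footprints.

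Ddit4-201, whose product inhibits mTORC1, had 8.92, 12.9 and 14.1 per 100 coding footprints against 33.8, 22.4 and 6.15 in SCe. Slc7a1-206, of a cationic amino acid transporter, had 7.62, 5.71 and 7.79 against 15.7, 8.28 and 3.97. Eprs-201, of a tRNA synthetase, had the fewest, with 0.665, 0.708 and 0.530 against 7.11, 2.54 and 0.0499. All 3 overlapped between the groups, and none of these 3 entries holds an upstream ATG. Of the 28-base stretches of Slc7a1-206, 30.9% also occur in coding entries. Outside that list, Sat1-202, of the enzyme that acetylates polyamines, carried 72.5, 73.4 and 60.9 per 100 against 90.4, 61.9 and 45.7, the highest ratios of the polyamine metabolism members named.

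**Figure D4:**
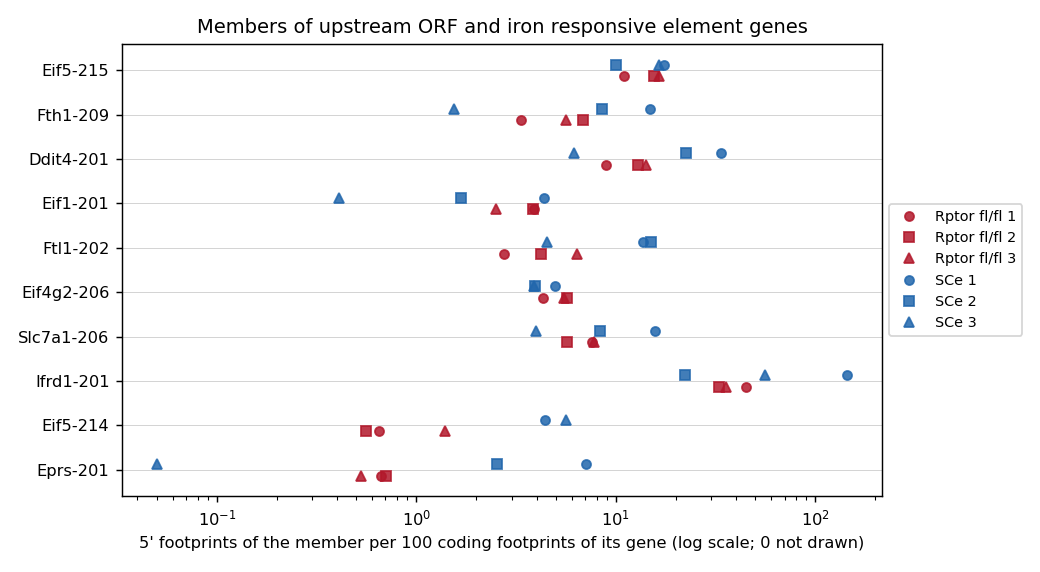
Member footprints per 100 coding footprints of the gene (log scale) for members with at least 100 counts from genes of the upstream reading frame and iron responsive element lists; each point is 1 library and values of 0 are not drawn. Ifrd1-201 lies furthest right, and the SCe points (blue) spread over a wider range than the red points in most rows.

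Of 8 genes with an iron responsive element, 3 had 5 members, with a median log2 difference of 0.82. Ftl1-202 had 3.48, 6.41 and 7.39 CPM in libraries labelled Rptor fl/fl and 64.7, 45.1 and 14.2 in SCe, apart between the groups but past no threshold per entry (log2 −2.83 ± 0.66, edgeR adjusted p = 0.159). Fth1-209 had 10.6, 33.1 and 21.4 against 158, 33.4 and 10.4, which overlapped. Per 100 coding footprints of the gene, Ftl1-202 had 2.74, 4.21 and 6.41 against 13.7, 15.1 and 4.53, and Fth1-209 had 3.33, 6.87 and 5.60 against 14.9, 8.48 and 1.55. Of the 28-base stretches of Ftl1-202, 78.6% also occur in 5′ UTRs of other genes, so its counts are uncertain. The letters CNNNNNCAGTG, searched on the transcript strand, were in 6.56% of members and 5.86% of the other entries in range.

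A pyrimidine start (C followed by at least 4 pyrimidines at the annotated 5′ end) was found in 87 members (2.19%) and in 2.23% of the other entries. Their median log2 difference was −0.21, and that of the members without it −0.21. Annotated ends need not be the ends used in these organoids. The 39 of 87 cytosolic ribosomal protein genes with members had 54 entries with a median of −0.64, of which 13 were above 0 and 41 below. The 16 of 25 genes for elongation factors and other TOP mRNAs had 19 entries with a median of −0.60. Over all members the median was −0.21 and over all 26051 entries tested 0.07. No ribosomal protein gene passed the test.

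Rack1-201 had 45.4, 68.6 and 50.7 CPM against 117, 63.7 and 24.9 in SCe, and Rpl35a-201, of a large-subunit protein, 19.1, 40.8 and 26.5 against 116, 44.3 and 29.4. Eef2-201, of the translocation factor, had 22.4, 39.7 and 29.9 against 67.5, 52.1 and 33.4, and Ncl-201, of nucleolin, 43.0, 45.0 and 36.6 against 53.6, 56.7 and 22.3. None of the 4 separated the groups, and SCe 1 was above every library labelled Rptor fl/fl in each.

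Whether the members' footprints differed between the groups was asked first per entry. With edgeR, 0 of 3981 members were higher and 0 lower at an adjusted p of 0.05, and the background was 0 of 26051 entries in each direction (0%). At an unadjusted p under 0.05 there were 250 members (6.28%), below the 12.7% of all entries. Of the entries tested 19672 were coding entries, so this background is mostly not one of 5′ UTRs. When edgeR was fitted on 5′ entries alone, 546 members (13.7%) had an unadjusted p under 0.05. DESeq2 called 43 members higher and 82 lower, 1.08% and 2.06%, below its background of 4.46% and 4.06%. Without reference to a test, all 3 libraries labelled Rptor fl/fl were above all SCe libraries for 380 members (9.55%; 15% of all entries) and below for 399 (10.0%; 8.94% of all entries). The median log2 difference of the members was −0.21, with 1650 above 0 and 2331 below, while it was 0.14 for coding entries and 0.01 for the 2398 longer 5′ entries. Without TMM scaling the members' median was −0.32, and without SCe 3 it was −0.43. It was 0.03 with 5′ entries fitted alone, 0.01 with the replicate number as a block and 0.10 without SCe 1. The sign of the median therefore depended on the fit and on the libraries.

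No entry passed the edgeR threshold. Pigr-201 had the smallest adjusted p, with a mean of 169.6 ± 8.50 CPM (SD, n = 3) against 34.4 ± 5.55 (log2 2.30 ± 0.19, edgeR adjusted p = 0.0522), and it passed without SCe 1 (log2 2.15, edgeR adjusted p = 0.0405). Both members of Reg1, an antimicrobial lectin-like secreted protein, were also apart between the groups. Reg1-202 had 15.1, 27.4 and 31.3 against 2.77, 3.11 and 3.08, and Reg1-201 had 46.1, 56.0 and 50.6 against 1.85, 6.22 and 6.40. In the other direction H1f0-201 gave log2 −1.87 ± 0.38 (edgeR adjusted p = 0.125). Bex4-201, of a small brain-expressed X-linked protein, had no footprint in any library labelled Rptor fl/fl and 10.2, 12.4 and 17.5 CPM in SCe, at least 100.2-fold lower by a floor of 3 counts over the group. For Bex4-201, 94.9% of the 28-base stretches occur in other genes.

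Summed over the 5′ entries of each gene, more genes passed. The sums took in 5′ entries of any length and count, so they also hold entries that are not members. In 1547 of the member genes practically all 5′ counts lay on members. Of 3456 member genes 41 were higher and 63 lower in libraries labelled Rptor fl/fl (edgeR, adjusted p under 0.05), or 1.19% and 1.82%, below the background of 3.26% and 4.64% of all 16867 gene-level 5′ and coding sums. At an unadjusted p under 0.05 there were 507 genes (14.7%; background 23.9%). DESeq2 called 62 and 139 (background 5.06% and 7.07%), and had 487 genes at an unadjusted p under 0.05 (background 23.7%). In all 104 the 2 groups were separate. In 6 of the 41 every SCe library was at 0, and in 2 of the 63 every library labelled Rptor fl/fl was. Their median log2 difference was 2.74 (2.54 with those at 0 set to their bound) and −2.36. The counts changed with the libraries that were fitted. There were 102 higher and 55 lower without SCe 1, 49 and 393 without SCe 3, 19 and 25 without SCe 2, and 7 to 9 higher and 3 to 6 lower without any 1 library labelled Rptor fl/fl.

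Coding footprints and RNA of these genes were set beside their 5′ counts. Of the 41 higher genes, coding footprints were tested in 38 and passed in the same direction in 25, and RNA was tested in 40 and passed in the same direction in 20 and in the opposite one in 1. Of the 63 lower genes coding footprints passed in the same direction in 37 and RNA in 43, and none passed in the opposite one. The median coding difference was 1.54 for the higher and −1.35 for the lower genes, and the median RNA difference 1.25 and −0.97. Over all member genes, whether or not the 5′ sum passed, coding footprints passed in the direction of the 5′ difference in 264 of 3415 tested and in the opposite one in 44, and RNA in 1026 and 482 of 3444. Of all member genes, RNA was higher in 939 and lower in 569 of 3444 tested (edgeR, adjusted p under 0.05), 27.3% and 16.5% beside 21% and 21.8% of all 15086 genes.

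**Figure D5:**
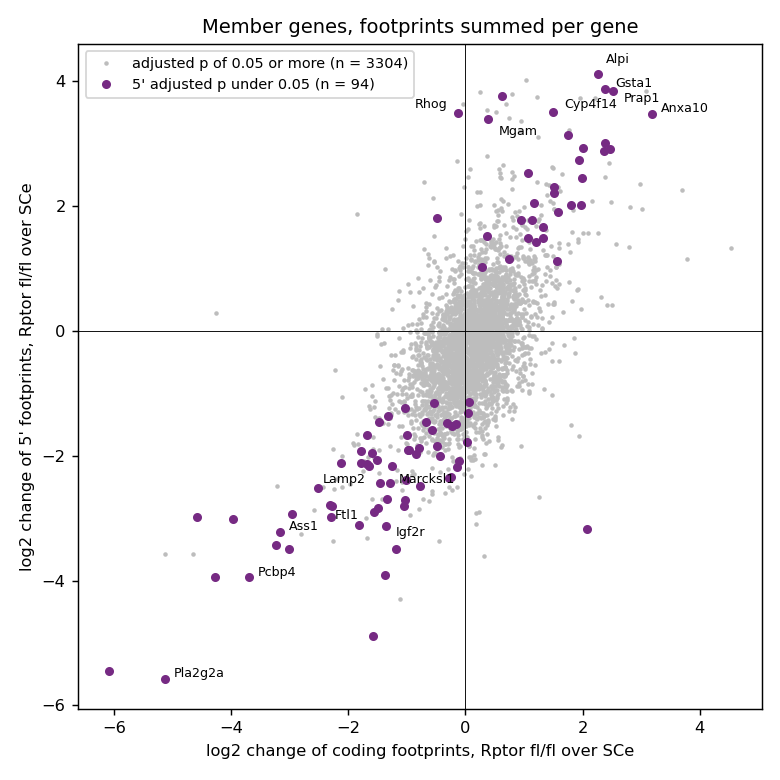
Log2 difference of 5′ footprints (vertical) and coding footprints (horizontal), summed per gene, for 3398 member genes with a footprint in both groups on both parts; purple points are the 94 with an edgeR adjusted p under 0.05 for the 5′ sum. Of these, 31 are above 0 on both axes and 57 below 0 on both, and 6 have opposite signs.

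The genes described next were the 8 with the largest log2 difference each way among those with at least 100 member counts, a choice made after their values were seen. The higher ones were led by Il31ra, a cytokine receptor subunit, which had 10.6, 14.0 and 7.33 5′ footprint CPM against 0 in each SCe library, at least 27.1-fold higher, and no coding footprint in any library. Alpi, intestinal alkaline phosphatase, had 10.8, 11.8 and 10.2 against 0, 0 and 1.19 in SCe (log2 4.12 ± 0.69, edgeR adjusted p = 0.00980), with coding log2 2.27 ± 0.27. Gsta1 had 100.2, 117 and 79.4 against 3.71, 18.9 and 2.38 (log2 3.88 ± 0.60, edgeR adjusted p = 0.00759), with coding log2 2.38 ± 0.35, and 53.1% of the 28-base stretches of its member occur in 5′ UTRs of other genes, so its counts are uncertain. Prap1, a secreted acidic protein of enterocytes, had 22.2, 26.8 and 29.3 against 2.78, 3.94 and 0.238 (log2 3.85 ± 0.61, edgeR adjusted p = 0.00791), with coding log2 2.52 ± 0.25. In these 3 genes 5′ and coding footprints rose together, and in Alpi RNA passed as well (log2 1.98 ± 0.59, edgeR adjusted p = 0.0461). The RNA differences of Gsta1 (log2 2.39 ± 1.02, edgeR adjusted p = 0.115) and Prap1 (log2 1.28 ± 0.56, edgeR adjusted p = 0.119) were also above 0 but did not pass. Alpi missed the threshold for 5′ footprints without any 1 library labelled Rptor fl/fl (edgeR adjusted p from 0.0530 to 0.0551), and its fitted difference was 8.74 without SCe 3, the SCe library with its counts. Its RNA missed the threshold without each line other than SCe 1 (edgeR adjusted p from 0.0502 to 0.217).

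Cyp4f14, a fatty acid hydroxylase, had 11.7, 9.08 and 10.7 against 1.39, 2.36 and 0, and Anxa10, an annexin, had 5.70, 5.23 and 5.89 against 0, 0 and 0.953 (fitted log2 3.48, and 7.78 without SCe 3). Their coding footprints rose by log2 1.50 ± 0.34 and 3.19 ± 0.31. Rhog, a small GTPase, had 4.24, 6.00 and 5.17 against 0.927, 0.788 and 0 (log2 3.49 ± 0.85, edgeR adjusted p = 0.0386), with coding footprints of 20.2, 17.2 and 21.6 against 23.2, 18.1 and 22.4. Mgam, the brush border maltase-glucoamylase, had 7.01, 5.85 and 6.25 against 1.39, 0.788 and 0 (log2 3.40 ± 0.82, edgeR adjusted p = 0.0373), with coding log2 0.38 ± 0.37. In Rhog and Mgam the coding sums overlapped between the groups. Alpi, Prap1, Cyp4f14, Anxa10, Rhog and Mgam had few 5′ counts in SCe. They reached the count minimum through libraries labelled Rptor fl/fl, so their 5′ p-values are not read as support.

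Among the lower genes Bex4, described above, had no footprint in any library labelled Rptor fl/fl. Pla2g2a, a secreted antimicrobial phospholipase, had 0, 0.769 and 0.360 CPM against 39.9, 11.03 and 7.15 in SCe (log2 −5.57 ± 0.91, edgeR adjusted p = 0.00895), with coding log2 −5.14 ± 0.53 and RNA log2 −7.43 ± 0.69. Pcbp4, an RNA-binding protein, had 1.79, 2.00 and 2.76 against 80.2, 11.03 and 11.7 (log2 −3.95, and −2.39 without SCe 1). Ass1, argininosuccinate synthase of arginine synthesis, had 0.326, 3.54 and 1.32 against 26.9, 7.88 and 13.6. Coding footprints and RNA of Pcbp4 and Ass1 fell too, with log2 −3.70 ± 0.62 and −2.25 ± 0.14 for Pcbp4 and −3.18 ± 0.24 and −4.03 ± 0.28 for Ass1.

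Igf2r, which carries lysosomal enzymes, had 0.489, 1.85 and 1.08 against 19.5, 3.15 and 7.15, and Lamp2, a lysosomal membrane protein, had 5.54, 5.85 and 5.29 against 57.5, 22.1 and 11.9 (log2 −2.44, and −1.57 without SCe 1). Marcksl1, a MARCKS-like actin regulator, had 2.12, 1.38 and 2.40 against 14.8, 11.8 and 6.43. Ftl1 had 3.42, 6.31 and 7.21 against 64.9, 45.7 and 14.3 (log2 −2.84 ± 0.53, edgeR adjusted p = 0.0148). In Ftl1 coding footprints fell (log2 −1.49 ± 0.24), while its RNA was 1238 and 1252 CPM against 1086, 1167 and 1009 (log2 0.20 ± 0.10, edgeR adjusted p = 0.172). Its 5′ counts are uncertain, as given above, and Ftl1-ps1, a separate member gene, held 1262 counts beside 381 of Ftl1. Ftl1 missed the threshold for 5′ footprints without any 1 library labelled Rptor fl/fl (edgeR adjusted p from 0.0638 to 0.0797). It also did so without SCe 2 (edgeR adjusted p = 0.0599). Igf2r, Lamp2 and Marcksl1 fell at all 3 levels. Pla2g2a and Igf2r had few 5′ counts in libraries labelled Rptor fl/fl. They reached the count minimum through SCe, so their 5′ p-values are not read as support.

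In 6 of the genes that passed and had footprints in both groups, the coding difference had the other sign, and none of those coding differences passed; these too were singled out after their values were seen. Rhog was one, and its RNA was higher (log2 0.55 ± 0.14, edgeR adjusted p = 0.0267). Rabggtb, a subunit of the enzyme that prenylates Rab proteins, had 30.6, 14.9 and 17.9 5′ footprint CPM against 7.42, 5.52 and 5.24 in SCe, with coding log2 −0.49 ± 0.27. Its RNA was lower (log2 −0.78 ± 0.19, edgeR adjusted p = 0.0274). RNA of both genes missed the threshold without either RNA line labelled Rptor fl/fl. Sdcbp, syntenin, had 4.89, 6.31 and 7.45 against 28.3, 21.3 and 15.5, with coding log2 0.03 ± 0.23. Srsf2, a splicing factor, had 16.8, 17.7 and 19.1 against 51.5, 60.7 and 23.6, with coding log2 0.04 ± 0.27. RNA of Sdcbp and Srsf2 did not pass. Another was the predicted gene Gm49450, all of whose 28-base stretches occur in 5′ UTRs of other genes.

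Few genes of the lists passed at the gene level, to be read beside the 1.19% of member genes that were higher and the 1.82% that were lower. Of 13 stem cell marker genes with members, Smoc2 (log2 −1.96 ± 0.38), Cdk6 (−1.15 ± 0.28) and Rgmb (−1.36 ± 0.34) were lower and none higher, and the median of the 17 entries was −0.86, with 15 below 0. Each of the 3 missed the threshold without any 1 library labelled Rptor fl/fl and without SCe 2. Members held 557 of the 571 5′ counts of Smoc2, 54.5 of the 410 of Cdk6 and 177 of the 633 of Rgmb. The calls of Cdk6 and Rgmb therefore rested mostly on 5′ entries that are not members. RNA of these 13 genes was higher in 3 and lower in 7. Smoc2-202 had 11.9, 11.6 and 12.7 CPM against 65.2, 56.7 and 22.3. Lgr5-201 had 34.3, 40.95 and 32.7 against 62.9, 67.6 and 39.3, which overlapped. Of 14 glycolysis genes 1 was higher, and 1, Gpi1, glucose-6-phosphate isomerase, was lower (log2 −2.33 ± 0.48), and the median of 23 entries was −0.42. RNA of the 14 was higher in 1 and lower in 9.

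Of 11 fetal-like genes Marcksl1 was lower in 5′ footprints, while RNA of the 11 was higher in 7 and lower in 2. Of 9 genes of mTOR complexes and effectors Rraga, a GTPase that recruits mTORC1 to lysosomes, was lower (log2 −1.84 ± 0.37). Of the TOP list Vim, vimentin, was lower, with no 5′ footprint in libraries labelled Rptor fl/fl and 6.95, 2.36 and 4.05 CPM in SCe. Vim reached the count minimum through SCe alone, so nothing is read from its 5′ test. Its coding footprints and RNA were lower too (log2 −6.12 ± 0.76 and −5.40 ± 0.50). Rraga-201 had 3.32, 3.75 and 5.66 CPM against 17.1, 17.9 and 10.7. None of 11 uORF, 21 initiation factor, 13 ATF4 target, 5 polyamine or 33 oxidative phosphorylation genes passed. The medians of the entries were −0.64 for fetal-like genes, −0.54 for mTOR, −0.24 for initiation factors, −0.20 for ATF4 targets, 0.09 for polyamine metabolism and −0.47 for oxidative phosphorylation, beside −0.21 for all members.

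Of 30 genes looked at in the gene-level test, Gsta1, Pigr and Reg1 passed in each of the 6 fits without 1 library. Bex4 and Il31ra did too, but all their counts lay in 1 group, through which they reached the count minimum, so nothing is read from it. Without a library labelled Rptor fl/fl 21, 19 and 24 of them no longer passed (replicates 1, 2 and 3, edgeR adjusted p from 0.0516 to 0.178). Without SCe 2 it was 14 (edgeR adjusted p from 0.0511 to 0.132), without SCe 1 it was Igf2r and Srsf2 (edgeR adjusted p from 0.0654 to 0.0688), and without SCe 3 none. Of the 30, 27 reached the count minimum without SCe 1 and without SCe 3, where Gm49450, Tbc1d16 and Vim were not tested, and 29 in each of the other fits, where Tbc1d16 was not.

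The ratio of 5′ to coding footprints was tested in a model with both counts of each transcript. With edgeR 0 of 2522 members rose and 0 fell at an adjusted p of 0.05 (0% of 4010 transcripts), and the smallest adjusted p was 0.191. At an unadjusted p under 0.05 there were 196 members, 7.77% beside 7.31% of all transcripts. DESeq2 called 33 higher and 40 lower (1.31% and 1.59% of the members, 1.37% and 1.37% of all transcripts), and limma 5 and 8 with a pseudocount of 0.5 (0.198% and 0.317%, beside 0.249% and 0.2% of all transcripts) and 4 and 3 with 2 (0.159% and 0.119%, beside 0.274% and 0.0748%). Summed per gene, edgeR called 0 of 3415, with 374 at an unadjusted p under 0.05 (10.95%, beside 10.2% of all genes tested). The median log2 difference of the ratio was 0.05 when each kind of count was scaled on its own and −0.38 when both shared the library size.

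The members with the smallest p for the ratio had a coding partner at 0 in one group. In Rfc1-202, Setdb1-203 and Tmem45b-204 the own coding entry had 0 counts in all libraries labelled Rptor fl/fl, and in Rbm39-204, Sf3a2-204 and Eif4g2-206 in all SCe libraries. Rbm39-204, of a splicing regulator, had 122, 124 and 108 5′ counts and 146, 181 and 194 coding counts in the first group and 69, 30 and 52 5′ counts with no coding count in SCe. Against all coding footprints of the gene it had 6.29, 5.76 and 3.90 per 100 against 24.6, 14.2 and 6.12. Rfc1-202, of the clamp-loading replication factor, had 2.53, 3.63 and 2.38 per 100 against 10.0, 4.76 and 2.79 by the same measure, which overlapped.

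At the edges of the rule, Nfrkb-208, Kif18a-201 and Rph3al-201 had 30.0 counts and were members, while Armc10-202 and Npdc1-211 with 29.999 and Hipk1-202 with 29.997 were not. Cdx2-201, Prag1-201 and Nectin3-205 had the greatest length the rule allows, and Atf5-203, Chtop-203 and Bche-201 lay just outside at 300. Cers6-206 and Aldh1b1-202 were among the shortest members, at 61 bases.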

How the data were processed

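Ribosome footprints were measured in 3 organoid lines labelled Rptor fl/fl and 3 SCe lines, and RNA in 2 and 3 lines. The authors trimmed adapters (cutadapt 1.18), removed ribosomal RNA fragments and deposited Salmon 1.1.0 estimated counts on GENCODE vM21 (mm10) entries for 5′ UTRs and coding sequences, with each entry's effective length; tool versions are from the submitters' processing notes. Salmon divides reads of shared sequence among entries, so such counts are estimates. In vivo libraries were not used here.

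Estimated counts were rounded. Entries with at least 30 counts over the libraries were fitted with edgeR 4.0.16 (quasi-likelihood test, TMM scaling, Benjamini-Hochberg adjustment) in R 4.3.3, without a replicate block. The ratio was tested as an interaction of count kind and group. Technical RNA libraries of a line were summed. DESeq2 1.42.0 and limma 3.58.1 were alternatives. The fits were tested on simulated data. Shares and ratios per library were compared by two-sided exact permutation tests over libraries.

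Named entries were the 15 with most counts, the 3 with the smallest p each way where fewer than 3 passed, members of the uORF and iron responsive element lists with at least 100 counts, 3 of each other list, and those at the edges of the rule. Members and lists were chosen with earlier results of these data known. A few genes are not reported here.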

Additional observations from a re-analysis of the deposited data

How the results depend on the processing

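Per entry edgeR called 0 higher and 0 lower. DESeq2 called 43 and 82, a fit on 5′ entries alone 15 and 3, and filterByExpr, no count filter and TMM from coding entries 1 higher each. Without 1 library, counts per entry were 0 to 2 higher (2 without SCe 1) and 0 lower. Summed per gene, edgeR gave 41 and 63 and DESeq2 62 and 139, and without 1 library 7 to 102 higher and 3 to 393 lower, so that all per-entry and per-gene fits without a library ran from 0 to 102 and from 0 to 393. For the ratio, DESeq2 called 33 and 40, no count filter 4 and 6, limma with a pseudocount of 0.5 5 and 8, and with 2 4 and 3; edgeR called 0 in each fit without 1 library. The fits on 5′ entries alone, the per-gene DESeq2, block and leave-one-out fits and the pooled density were chosen after seeing the data. The cause of these differences was not tested.

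Replicate numbers did not pair the footprint libraries (correlations of same-numbered deviations of −0.04, 0.02 and 0.01). With the replicate number as a block, 0 members passed per entry and 0 for the ratio, 25 genes were higher and 27 lower summed per gene (13 of the 30 named genes missed the threshold, edgeR adjusted p from 0.0503 to 0.0981), and RNA was higher in 513 and lower in 292 member genes. Under the RNA block the log2 difference of Pigr was 0.48 and that of Srsf2 0.0030, each reversed. Without 1 RNA line, RNA calls ran from 358 to 1299 higher and 187 to 840 lower. They were 358 and 214 without Rptor fl/fl line 1, 372 and 187 without line 2, 605 and 387 without SCe 2, and 531 and 354 without SCe 3.

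The members' share of footprints differed by −0.59 percentage points (1.97% in libraries labelled Rptor fl/fl, 2.57% in SCe), and as a percent of 5′ counts by 0.157. Short against long 5′ UTRs differed by 0.029 (log2), by 2.70 with effective length, and by −0.15 with a minimum of 100 counts, −0.30 per gene and −0.054 with no minimum. Without 1 library, coding differences ran from −0.085 to 0.18 for Sdcbp and −0.19 to 0.39 for Srsf2. RNA differences ran from −0.53 to 0.32 for Pigr, −0.048 to 0.0088 for Srsf2 and −0.057 to 0.13 for Cdk6. None of these 5 had passed the test. Of the other values of single genes and entries, 624 kept direction and side of the threshold, 150 lost it and 52 gained it. Depth ran from 1169578 footprints in SCe 2 to 8584977, and its part in these values was not tested.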
